A study of Homo sapiens with 6 samples.

Results

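Actin branching and podosome genes encode the proteins that macrophages use to build branched actin networks and the adhesions called podosomes. Members were taken by gene symbol from a list of ARP2/3 complex subunits, WASP and WAVE regulators, actin binders and podosome proteins. Of 40 listed names, 39 were found among the 17513 genes of the tables. The remaining name, TKS4, is a RefSeq synonym of SH3PXD2B, which is itself a member, so 39 genes stand for the whole list. All 39 passed the filter on low counts and were tested.

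The 6 libraries fall into 2 groups of 3, named shNC and shSPP1#2 in the sample titles. The series description gives the cells as macrophages made from THP1 (a monocytic leukemia line of human origin) that spent 48 h in medium from KYSE150 cells. KYSE150 is an esophageal squamous cell carcinoma line, and its cells carried shNC or shSPP1#2, a hairpin named for SPP1, the osteopontin gene. Both groups therefore share the macrophage line, the time and tumor cell medium, and they differ in the hairpin of the cells that made the medium. The 6 libraries include no medium of KYSE150 cells without a hairpin and no further SPP1 hairpin. The sample labels name KYSE150 itself as the cell, so the identity was examined first. Nothing in the labels says that replicates were separate cultures, so p-values measure the spread between these libraries, which may be technical.

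The RNA carried monocyte and macrophage markers, which cannot tell macrophages from the THP1 line they were made from. The word macrophages is used here as in the series description. All 12 monocyte and macrophage markers reached 1 FPKM in each library, with a list median of 186 to 195 FPKM (FPKM is the fragment count scaled by transcript length and library size). Among 12 squamous epithelial markers, S100A2 alone reached 1 FPKM, and the keratins KRT5, KRT6A, KRT13 and KRT14 lay at 0.04 FPKM or less. The summed epithelial markers came to 3.26 to 3.62 FPKM in shNC libraries and 3.23 to 4.0 FPKM in shSPP1#2 libraries. The lowest of the monocyte and macrophage markers was CD163, at 1.33 to 1.69 FPKM. Of 6 fibroblast markers 2 reached 1 FPKM, COL1A1 (16.3 to 19.1 FPKM) and PDGFRB (3.24 to 4.18 FPKM). Of 3 T and NK cell markers present, 1 to 2 reached it, with NKG7 at 3.69 to 6.02 FPKM. Of 5 B cell markers 0 did. Totals ran from 18113591 to 20626346 estimated counts per library, and shNC replicate 2 was the smallest. SPP1 of the macrophages themselves measured 2075, 2011 and 1890.4 FPKM with shNC medium and 2061, 2014 and 1932 FPKM with shSPP1#2 medium, which does not check the hairpin in the tumor cells. Libraries within each group differed beyond counting noise (chi-square per degree of freedom 3.2 to 4.33). Where 3 values are given for a medium, they are replicates 1, 2 and 3 in that order.

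Branched actin networks start when the ARP2/3 complex binds the side of a filament and begins a daughter filament from it. The complex is switched on by WASP, which acts with WIP in podosome cores, and by the WAVE complex, which acts under Rac at the leading edge. Cofilin, profilin and the beta-thymosins recycle and store actin monomers, and vinculin, paxillin and zyxin form the adhesive ring around a podosome core, where TKS scaffolds recruit proteases that digest matrix.

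The machinery was abundant in the macrophages and showed no difference between the media that passed the test. Mean levels of the 39 genes ran from 6.55 FPKM for SH3PXD2A to 2242 FPKM for TMSB10, with a median of 143 FPKM against 7.11 FPKM over all tested genes. Of the 39, 31 lay above the 90th percentile of all deposited genes. Together they held 2.26% to 2.38% of the summed FPKM of a library. Log2 fold changes, shSPP1#2 minus shNC, ran from -0.12 to 0.13, and the 95% interval of each of the 39 lay within 0.25 of 0. In bulk RNA such as this, a change in the make-up of the culture and a change of RNA per cell cannot be told apart.

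**Figure D1:**
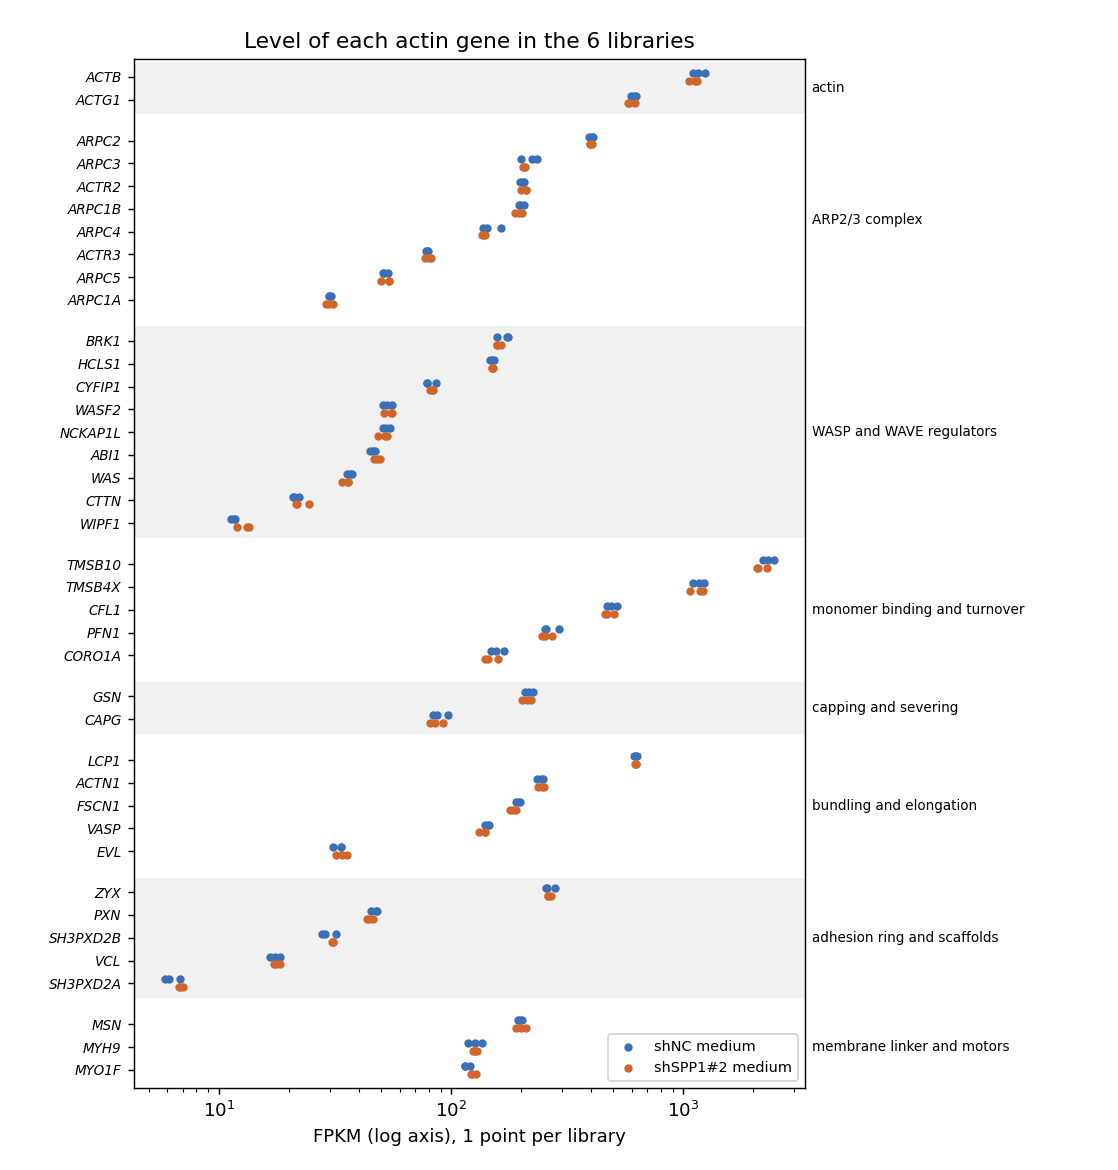
FPKM (log axis) of the 39 genes in each of the 6 libraries, grouped by role, with 3 points for shNC medium and 3 for shSPP1#2 medium. The groups lie close together for every gene, while the genes themselves span from 5.84 FPKM (SH3PXD2A) to 2468 FPKM (TMSB10).

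Beta-actin and gamma-actin, the cytoplasmic actins, were among the abundant transcripts of these cells. ACTB measured 1106, 1238 and 1159 FPKM with shNC medium and 1053, 1143 and 1125 FPKM with shSPP1#2 medium. ACTG1 measured 595, 628 and 613 FPKM with shNC medium and 577, 619 and 584 FPKM with shSPP1#2 medium. For both genes the groups overlapped, shNC replicate 2 was the highest library and shSPP1#2 replicate 1 the lowest. The edgeR log2 fold changes were -0.083 for ACTB (95% interval -0.20 to 0.029) and -0.050 for ACTG1 (-0.15 to 0.051). ACTB made up 64.6% to 66.3% of the summed FPKM of the pair in each library. ACTB and ACTG1 have 10 and 20 pseudogenes named after them in GENCODE v29, which makes the division of reads uncertain.

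Actin genes are classic targets of the serum response factor SRF, which binds a motif known as the CArG box, and the ACTG1 promoter holds a match to it. The sequence below runs 5′ to 3′ on the minus strand of GRCh38 at chr17:81512874-81512993, from 194 to 75 bases before the RefSeq start of ACTG1, with the CArG match in capitals.
ACTG1: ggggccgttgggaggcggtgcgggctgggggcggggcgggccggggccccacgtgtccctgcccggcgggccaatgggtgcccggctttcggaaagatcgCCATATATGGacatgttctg
Of the 39 genes, 33 (not ACTB, ARPC1B, WASF2, NCKAP1L, CTTN or FSCN1) matched an entry of the RefSeq promoter table (GRCh38.p14; 250 bases before to 50 after the start). A CArG match was present in 1 of these 33 (3.03%), against 1.29% of 35116 promoters. The letters GAGGAA, read on both strands as the core of the site of the myeloid factor PU.1, were present in 14 of the 33 (42.4%) and in 27.9% of all promoters. The background percentages cover all 35116 RefSeq promoters and were not limited to genes expressed here. Among blood-cell forms LCP1, CORO1A, WAS and MYO1F held a GAGGAA match and HCLS1 and EVL did not. The other matches lay in ABI1, ACTR2, ACTR3, ARPC1A, ARPC5, BRK1, CAPG, PXN, SH3PXD2A and WIPF1. Such matches describe letters in a window and not binding.

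The ARP2/3 complex has 2 actin-related proteins that template the branch, ACTR2 and ACTR3, and 5 kinds of supporting subunit, of which ARPC1 comes as ARPC1A or ARPC1B. All 8 listed genes were well expressed, but their transcripts were unequal per length. ARPC2, which contacts the mother filament, was highest at 393 to 410 FPKM over the 6 libraries. ARPC3 (199.5 to 235 FPKM), ACTR2 (198 to 210 FPKM) and ARPC1B (188 to 207 FPKM) overlapped one another. ARPC4 came next at 135 to 163 FPKM, then ACTR3 at 76.9 to 81.5 FPKM, ARPC5 at 49.8 to 54.1 FPKM and ARPC1A at 28.9 to 30.9 FPKM, with no overlap between these neighbours.

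Of the ARP2/3 genes, ARPC3 and ARPC4 had the smallest p, with both groups overlapping. ARPC4, the subunit that pairs with ARPC2 in the core of the complex, measured 142, 163 and 137 FPKM with shNC medium and 140, 139 and 135 FPKM with shSPP1#2 medium. Its shNC replicate 2 stood above the other 5 libraries. The log2 fold change of ARPC4 was -0.10 (SE 0.058, edgeR adjusted p = 0.792), and -0.014 without shNC replicate 2. ARPC3 measured 235, 223 and 199.5 FPKM with shNC medium and 207, 207 and 205 FPKM with shSPP1#2 medium, so the lowest library of all was shNC replicate 3. Its log2 fold change was -0.091 (SE 0.052, edgeR adjusted p = 0.792), -0.043 without shNC replicate 1, -0.15 without shNC replicate 3 and -0.032 with the length trend removed. Intervals of the 8 ARP2/3 genes stayed between -0.22 and 0.11. ARPC1A and ARPC1B share 58.4% and 32.4% of their exonic bases with other genes in GENCODE v29, among them a transcript unit on the same strand that spans both, and ARPC4 shares 28.3%, so their estimated counts are less certain.

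Regulators that switch the complex on had a median of 51.9 FPKM, against 170.2 FPKM for the complex. WAS, which encodes the WASP of blood cells, ran from 33.9 to 37.4 FPKM, and WIPF1, which encodes the WASP partner WIP, 11.3 to 13.5 FPKM. WAVE complex genes spread more widely: BRK1, its smallest subunit, measured 157 to 176 FPKM, CYFIP1, which binds Rac, 78.9 to 86.4 FPKM, WASF2, the WAVE protein itself, 50.9 to 55.6 FPKM, NCKAP1L, which encodes the blood-cell subunit HEM1, 48.5 to 54.6 FPKM, and ABI1, an adaptor, 44.9 to 49.2 FPKM. NCKAP1L overlapped in level with both WASF2 and ABI1. HCLS1 (HS1), the blood-cell relative of cortactin, measured 147 to 154 FPKM, and cortactin (CTTN), which stabilises branches, 20.9 to 24.5 FPKM.

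WIPF1 was one of the 2 genes with an edgeR unadjusted p under 0.05. It measured 11.6, 11.3 and 11.8 FPKM with shNC medium and 13.5, 12.01 and 13.2 FPKM with shSPP1#2 medium. The 3 shSPP1#2 libraries lay above the 3 shNC libraries, and shSPP1#2 replicate 2 lay close to them. WIPF1 had a log2 fold change of 0.11 (95% interval 0.0034 to 0.21, edgeR adjusted p = 0.714), which ran from 0.094 to 0.14 with single libraries left out. WIPF1 lies on the minus strand of chromosome 2, 174559572 to 174682916 (GRCh38). BRK1 measured 176, 173 and 158 FPKM with shNC medium and 164, 157 and 157 FPKM with shSPP1#2 medium, with overlapping groups. BRK1 had a log2 fold change of -0.091 (SE 0.048, edgeR adjusted p = 0.770), of -0.14 without shNC replicate 3 and of -0.045 with the length trend removed.

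Genes whose proteins store and recycle actin monomers had a median of 485 FPKM, led by the thymosins. TMSB10 and TMSB4X encode beta-thymosins, small peptides that sequester monomeric actin. TMSB10 measured 2208, 2468 and 2308 FPKM with shNC medium and 2069, 2298 and 2102 FPKM with shSPP1#2 medium, and ranked 9th among all genes. Its groups overlapped, because shSPP1#2 replicate 2 lay above shNC replicate 1. The log2 fold change of TMSB10 was -0.12 (95% interval -0.23 to 4.4e-04, edgeR adjusted p = 0.732), and -0.065 without shNC replicate 2.

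TMSB4X measured 1167, 1224 and 1096 FPKM with shNC medium and 1212, 1177 and 1066 FPKM with shSPP1#2 medium, with the groups interleaved. Its level overlapped that of ACTB, the substrate it binds. The log2 fold change of TMSB4X was -0.019 (95% interval -0.14 to 0.099), and 0.027 without shNC replicate 2. With single libraries left out it ran from -0.060 to 0.044.

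CFL1, cofilin, which severs ageing filaments, measured 489, 518 and 471 FPKM with shNC medium and 470.4, 503 and 459 FPKM with shSPP1#2 medium. PFN1, profilin, which feeds monomers to growing ends, ran from 247 to 292 FPKM over the 6 libraries. CORO1A, a coronin of blood cells that binds ARP2/3 and filaments, measured 148, 168 and 157 FPKM with shNC medium and 139.7, 159 and 144 FPKM with shSPP1#2 medium. All 3 genes overlapped between the groups and were highest in shNC replicate 2. The log2 fold changes were -0.051 for CFL1, -0.061 for PFN1 and -0.10 for CORO1A (edgeR adjusted p = 0.902, 0.898 and 0.792). Without shNC replicate 2 they were -0.0063, 0.013 and -0.045. The lowest values with a single library left out were -0.099, -0.11 and -0.17. CFL1 and PFN1 have 8 and 10 pseudogenes named after them.

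Capping and severing were represented by GSN, gelsolin, at 201 to 226 FPKM, and CAPG, a macrophage barbed-end capping protein, at 81.2 to 96.7 FPKM. Their log2 fold changes were -0.044 and -0.051, with intervals that reached -0.15 and -0.18. Both were highest in shNC replicate 2, and without that library measured -0.0072 and 0.018. Their lowest values with a single library left out were -0.085 and -0.11.

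Bundling and elongation genes were led by LCP1, plastin-2 of blood cells, which cross-links filaments. LCP1 measured 623, 632 and 616 FPKM with shNC medium and 628, 627 and 617 FPKM with shSPP1#2 medium. The groups interleaved within a narrow range, and the log2 fold change was -0.0043 (95% interval -0.098 to 0.090). The level of LCP1 overlapped that of ACTG1. ACTN1, alpha-actinin, ran from 234.5 to 252 FPKM, VASP, a filament elongation factor, from 131 to 146 FPKM, and its relative EVL from 31.1 to 35.6 FPKM.

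FSCN1, fascin, which packs filaments into tight bundles, measured 518, 548 and 533 CPM (counts scaled to library size by TMM) with shNC medium and 489, 513 and 515 CPM with shSPP1#2 medium. On that scale the 3 shSPP1#2 libraries lay below the 3 shNC libraries. As FPKM the groups touched, since shSPP1#2 replicate 3 (191 FPKM) lay above shNC replicate 1 (190.4 FPKM). FSCN1 had a log2 fold change of -0.075 (95% interval -0.17 to 0.017, edgeR adjusted p = 0.8).

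Podosome ring and scaffold genes spanned from 5.84 to 280.1 FPKM. ZYX, zyxin, measured 256 to 280.1 FPKM, PXN, paxillin, 43.5 to 47.8 FPKM and VCL, vinculin, 16.6 to 18.4 FPKM. PXN had a log2 fold change of -0.079 (SE 0.046, edgeR adjusted p = 0.792), with overlapping groups. Of the TKS scaffolds, SH3PXD2B (TKS4), at 27.7 to 31.8 FPKM, lay above SH3PXD2A (TKS5), the least abundant of the 39. SH3PXD2A stood at 0.211 to 0.228 of the SH3PXD2B level in each library.

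SH3PXD2A had the smallest p of the 39 genes. It measured 5.84, 6.11 and 6.82 FPKM with shNC medium and 6.74, 6.80 and 6.99 FPKM with shSPP1#2 medium. The groups overlapped, since shNC replicate 3 lay above shSPP1#2 replicates 1 and 2 as FPKM; the other 2 shNC libraries lay below all shSPP1#2 libraries. Its log2 fold change of 0.13 (95% interval 0.013 to 0.24, edgeR adjusted p = 0.673) became 0.19 with shNC replicate 3 left out, 0.074 with shNC replicate 1 left out, and 0.069 with the trend over transcript length removed. SH3PXD2A lies on the minus strand of chromosome 10, 103594027 to 103855543 (GRCh38).

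The membrane linker moesin (MSN), which ties filaments to the plasma membrane, measured 190.2 to 210 FPKM, and MYH9, the heavy chain of non-muscle myosin IIA, 118 to 136 FPKM. MYO1F, a single-headed myosin of leukocytes, measured 114, 115 and 120.4 FPKM with shNC medium and 123, 128 and 122 FPKM with shSPP1#2 medium. The 3 shSPP1#2 libraries lay above the 3 shNC libraries, with a gap from 120.4 to 122 FPKM. MYO1F had a log2 fold change of 0.084 (95% interval -0.0084 to 0.18, edgeR adjusted p = 0.764), and ran from 0.052 to 0.10 with single libraries left out.

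Several blood-cell forms lay above a broadly expressed relative in 6 of 6 libraries. LCP1 measured 171 to 186 times PLS3, plastin-3. NCKAP1L measured 7.58 to 9.42 times NCKAP1, HCLS1 6.13 to 7.27 times CTTN, and WAS 5.06 to 6.09 times WASL, the N-WASP gene. The margin was smaller for myosin and coronin, with MYO1F at 2.55 to 2.82 times MYO1E and CORO1A at 1.79 to 2.17 times CORO1C. EVL, at 31.1 to 35.6 FPKM, lay above its relative ENAH (0.19 to 0.37 FPKM) but below its relative VASP (131 to 146 FPKM). Going the other way, the leukocyte myosin MYO1G (3.54 to 4.96 FPKM) lay below MYO1E (42.0 to 46.0 FPKM), a comparison added after the values were seen, and ABI3 stood at 0.32 to 0.75 FPKM against 44.9 to 49.2 FPKM for ABI1.

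Further pairs also had 1 leading form. ARPC1B measured 6.37 to 6.94 times ARPC1A, WASF2 12.6 to 14.2 times WASF1, CYFIP1 11.98 to 14.96 times CYFIP2, ACTN1 4.01 to 4.25 times ACTN4, and MSN 5.6 to 6.39 times EZR, ezrin. ARPC5 and ARPC5L were near each other, at a ratio of 1.14 to 1.34, while CFL2 (1.32 to 1.59 FPKM), PFN2 (0.17 to 0.65 FPKM) and MYH10 (0.12 to 0.21 FPKM) were scarce beside CFL1, PFN1 and MYH9. These ratios are levels per length in the same libraries and carry no test.

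**Figure D2:**
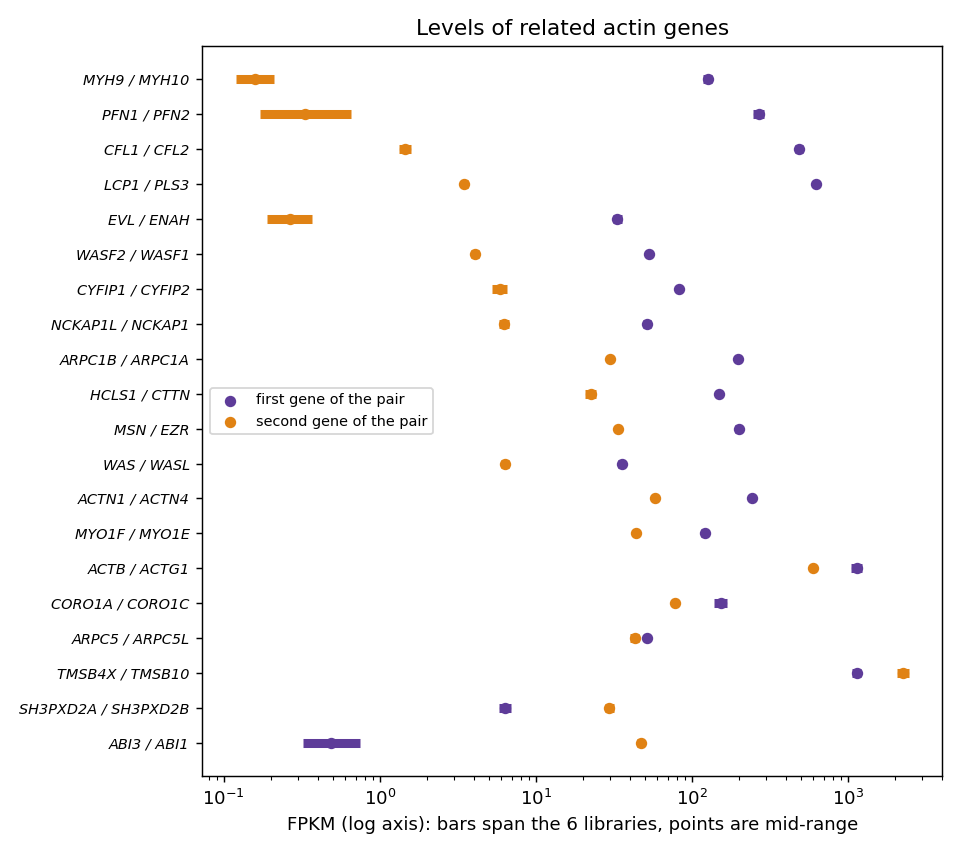
Levels (FPKM, log axis) of related actin genes, with a bar across the 6 libraries for each gene and a point at mid-range. The first gene lies to the right of the second in all pairs but TMSB4X with TMSB10, SH3PXD2A with SH3PXD2B and ABI3 with ABI1.

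As a list, the 39 genes showed no call between the media. The edgeR test called 0 of 39 at an adjusted p below 0.05, as it called 0% of the 13555 genes tested. DESeq2 and limma on FPKM values also called 0 of the 39. However, DESeq2 gave no adjusted p for 8 of them, among them WIPF1 and SH3PXD2A, so it could not call these. Over all genes DESeq2 called 25 of 17482. Limma called 0 of 13555 on log2(FPKM + 1) and 1 on log2(FPKM + 0.1). At an unadjusted p under 0.05 the main edgeR fit gave 2 of 39, SH3PXD2A and WIPF1, both higher in shSPP1#2 medium. In that fit 6.85% of all tested genes lay under 0.05 (3.45% higher and 3.39% lower). Groups did not overlap in CPM for 3 of 39, WIPF1 and MYO1F higher and FSCN1 lower, where 11.1% of all tested genes had such groups (5.63% higher and 5.5% lower). The edgeR count under 0.05, with the share of all genes in brackets, was 0 without shNC replicate 2 (4.01%) or shSPP1#2 replicate 3 (6.2%). It was 1 without shSPP1#2 replicate 1 (4.43%). It was 4 without shNC replicate 1 (7.51%) or shSPP1#2 replicate 2 (8.95%), and 5 without shNC replicate 3 (7.6%). The genes changed too: without shNC replicate 1 they were ACTB, TMSB10, CORO1A and PXN, all lower. Without shSPP1#2 replicate 2, 3 of the 4 were lower, and without shNC replicate 3, 3 of the 5. With the length trend removed the count was 1, NCKAP1L (5.97%). Of the 39 log2 fold changes 15 were positive and 24 negative, with a median of -0.012 against -3.0e-04 over all tested genes. Without shNC replicate 2 the split was 20 to 19 and the median 0.0018. Without shSPP1#2 replicate 2 the split was 10 to 29 and the median -0.028. The median standard error of a member was 0.049.

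The count under 0.05 depended on whether libraries of the same number were taken as pairs, which the labels do not state. With the replicate number as a block in the edgeR fit, 12 of the 39 had an unadjusted p under 0.05, where 10.8% of all tested genes did. Of these, WIPF1, SH3PXD2A and MYO1F were higher in shSPP1#2 medium, and ACTB, TMSB10, CORO1A, ARPC3, ARPC4, BRK1, FSCN1, VASP and PXN were lower. The blocked fit called 0.435% of all genes at an adjusted p below 0.05 and 0 of the 39, of which TMSB10 had the smallest adjusted p (0.106). With the block and the trend over transcript length removed, a fit chosen after the data were seen, 8 of the 39 had an unadjusted p under 0.05, where 8.63% of genes did. That fit called 0.316% of genes and 0 of the 39.

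**Figure D3:**
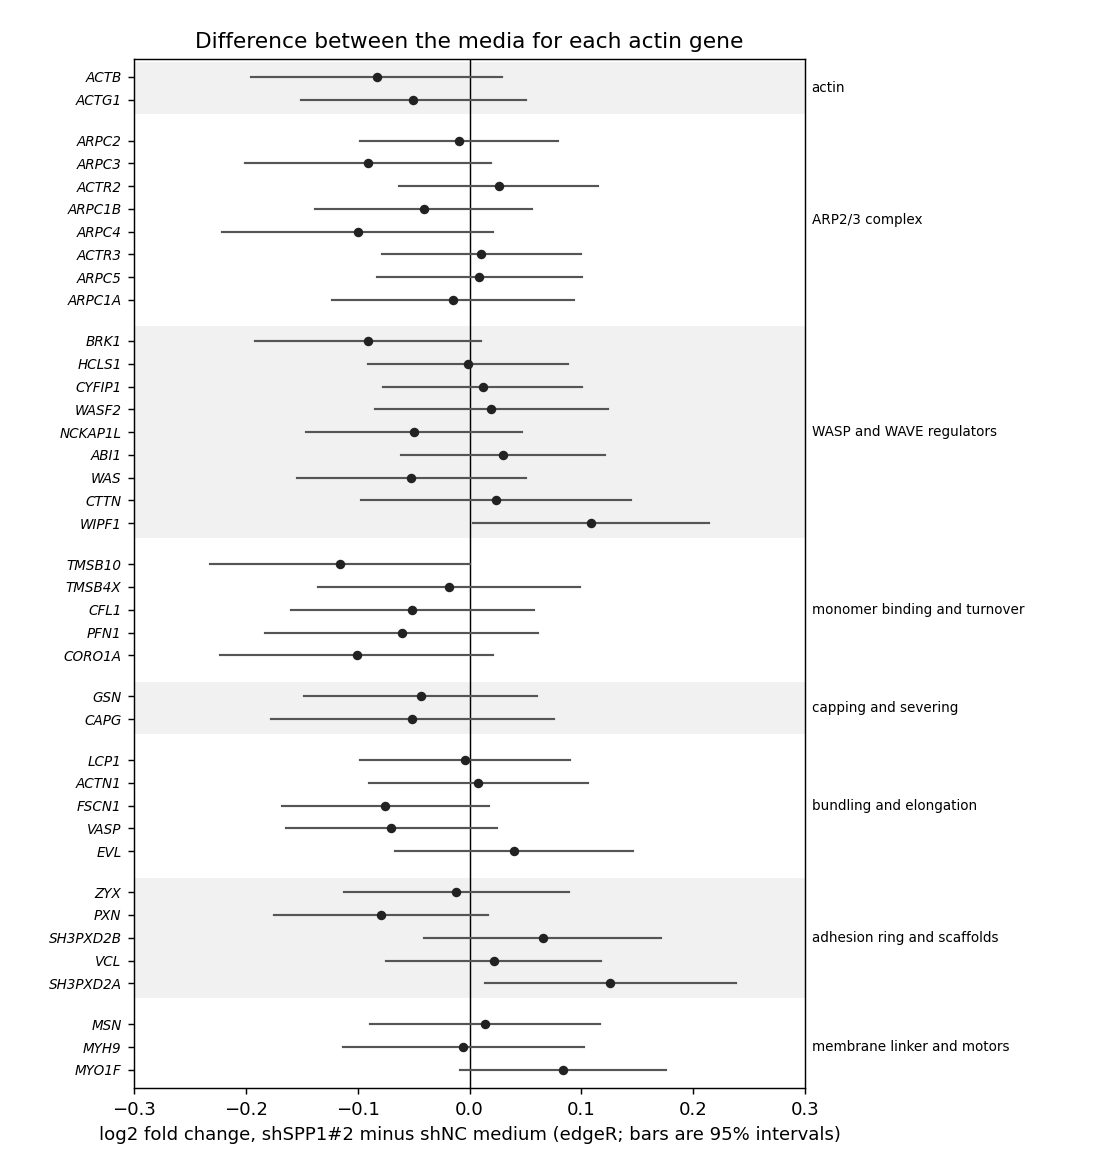
Log2 fold change of each of the 39 genes, shSPP1#2 minus shNC medium, from the edgeR fit, with 95% intervals. Points run from -0.12 (TMSB10) to 0.13 (SH3PXD2A), and the intervals of all genes but SH3PXD2A and WIPF1 include 0.

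Other genes of actin control were examined as a list of 87, all present, of which 86 were tested; WASF3 was too low. The edgeR test called 0 of 86, and 7 had an unadjusted p under 0.05, 2 higher and 5 lower in shSPP1#2 medium, beside the 6.85% over all tested genes. In place of 7, the count was 2 without shNC replicate 2, where 4.01% of all genes lay under 0.05. It was 5 without shNC replicate 1 (7.51% of all genes) or shSPP1#2 replicate 3 (6.2%). Without one of the other libraries it was 8 to 10 (4.43% to 8.95%). It was 10 with the replicate block (10.8%) and 4 with the length trend removed (5.97%). The list had 43 positive and 43 negative log2 fold changes. SSH1, the phosphatase that activates cofilin, measured 6.93, 6.49 and 7.27 FPKM with shNC medium and 7.69, 7.65 and 8.03 FPKM with shSPP1#2 medium, with groups apart (log2 fold change 0.17, edgeR adjusted p = 0.486). CAPZB, a subunit of barbed-end capping protein, measured 328, 359 and 338 FPKM with shNC medium and 292, 306 and 314 FPKM with shSPP1#2 medium (-0.12, edgeR adjusted p = 0.633). AIF1 is an actin-bundling protein of macrophages and MYL6 a myosin light chain. Their groups lay apart, with log2 fold changes of -0.21 and -0.13 (edgeR adjusted p = 0.601 and 0.619). Effective lengths were 8.28 kb for SSH1, 1.29 kb for CAPZB, 0.581 kb for AIF1 and 0.616 kb for MYL6. The signs of these genes thus went with the length trend described below, and their single values with that trend removed are not given here.

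Library by library, shNC replicate 2 had the smallest total and was the highest in scaled counts for 18 of the 39 genes. It was also the highest for 22.6% of the 4368 abundant genes. These are tested genes with a log2 CPM at or above the lowest of a member (5.52, ARPC1A). CPM is not scaled by length, so this cut differs from one on FPKM. The 18 members included both actins, all 5 monomer-binding and turnover genes, and GSN and CAPG. Only LCP1 and PXN among the 18 were over 3 kb in effective length, which is described below. In shNC replicate 2 the 12 members under 1.6 kb had a median log2 CPM 0.11 above their own means. For the abundant genes under 1.6 kb it was 0.075 above. The same library was the lowest for 23.4% of the abundant genes and for 4 of the 39. The coefficient of variation within groups ran among the ARP2/3 genes from 1.51% (ARPC2 and ACTR2) to 5.95% (ARPC3) and 7.37% (ARPC4), and reached 7.82% in CAPG. The median over the 39 was 4.21%, near the 3.94% of the abundant genes. Without shNC replicate 2 the log2 fold changes were -0.032 for ACTB and -0.024 for ACTG1. With single libraries left out ACTB ran from -0.13 to -0.032 and ACTG1 from -0.091 to -0.024.

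**Figure D4:**
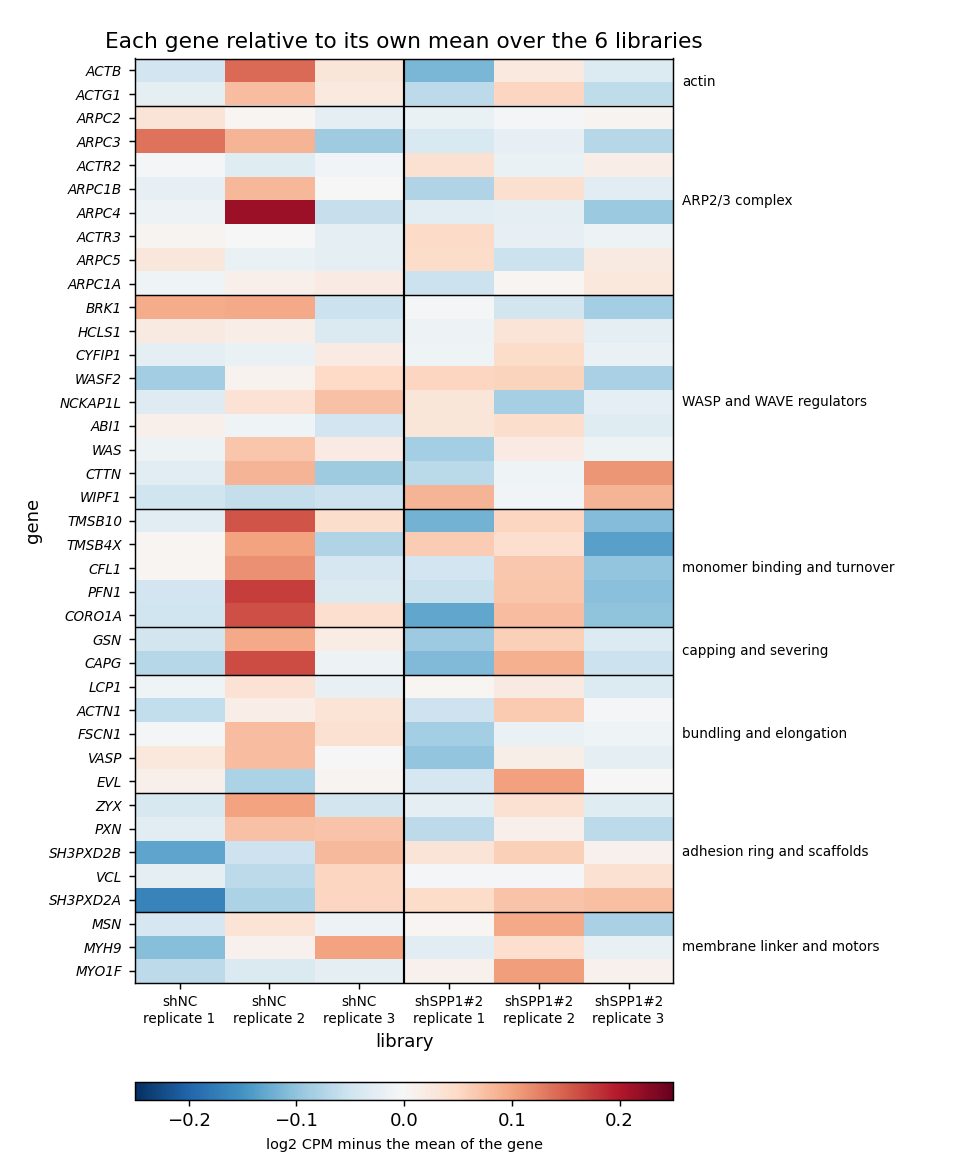
Log2 CPM of each of the 39 genes minus its own mean over the 6 libraries (colour, saturating at 0.25 either way), in rows by role and columns by library, shNC left of the line. The column of shNC replicate 2 is the reddest among the actins, the monomer binders and the capping genes. It is the highest library for 18 of the 39 genes, of which only LCP1 and PXN are over 3 kb.

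The sign of the small differences went with transcript length. Effective length, the length implied by the ratio of estimated counts to FPKM, ran from 0.412 kb for TMSB10 to 11.2 kb for SH3PXD2A. All 12 genes under 1.6 kb had a negative log2 fold change (TMSB10, TMSB4X, PFN1, ARPC3, BRK1, CFL1, CAPG, ARPC4, ARPC1B, ARPC2, ARPC1A and CORO1A), with a median of -0.056. Of the 17 over 3 kb, 13 were positive, with a median of 0.014. These length limits were chosen after the values were seen. Among the 4368 genes that passed the log2 CPM cut, 82.5% of those under 1.6 kb were negative, with a median of -0.053. Of those over 3 kb, 33.4% were negative.

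Pearson's r between log2 length and log2 fold change was 0.642 across the 39 genes and 0.496 across the 4368 abundant genes, as a description across genes that share the same libraries. With each library's trend over length removed, 8 of the 12 short genes were negative and their median was -0.011, with TMSB10 at -0.0021 and TMSB4X at 0.071. Without shNC replicate 2, 9 of the 12 were negative, with a median of -0.012. Without shSPP1#2 replicate 2 all 12 were negative, with a median of -0.10. WIPF1 and MYO1F kept log2 fold changes of 0.097 and 0.078 with the length trend removed, and FSCN1 one of -0.070. NCKAP1L, one of the longer genes, went from -0.050 (95% interval -0.15 to 0.047) to -0.098, the largest of the 39 in that fit.

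**Figure D5:**
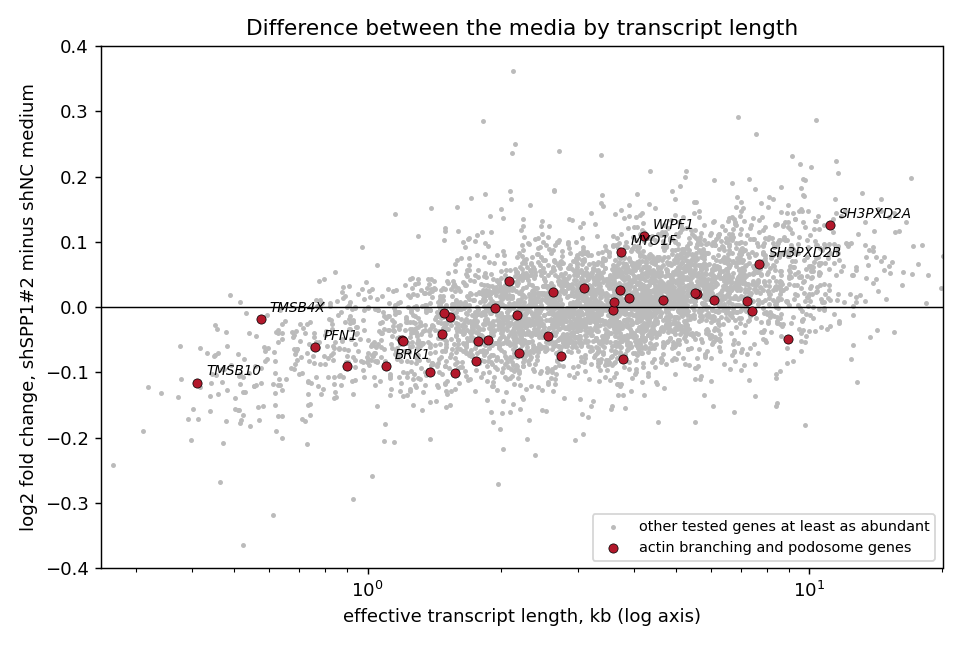
Log2 fold change, shSPP1#2 minus shNC medium, against effective transcript length (log axis) for the 39 genes (red) and for tested genes at least as abundant by log2 CPM (grey; 3 of 4368 lie outside the axes). The 12 red points under 1.6 kb lie below 0, within the grey cloud, which tilts the same way.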

How the data were processed

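Per the labels' protocols, RNA was taken with TRIzol, and polyadenylated RNA was read on DNBSEQ. The authors deposited estimated counts and FPKM values per gene, 1 column per library. The estimated counts carry no scaling, and 78.9% to 80.4% of them per library differ from a whole number by over 0.005. HISAT2 2.0.4, Bowtie2 2.2.5, RSEM and GRCh38.p13 are named in the submitters' processing notes with no role. For strand use, the annotation release and the lengths behind FPKM, nothing is given in the sources used. The FPKM table also held 20 lines of text, which were left out.

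Estimated counts were rounded, filtered with filterByExpr (13555 of 17513 genes kept) and scaled by TMM. The test was edgeR's quasi-likelihood F test (glmQLFTest, version 4.0.16 in R 4.3.3) of shSPP1#2 against shNC, without a block. P-values were adjusted by Benjamini-Hochberg over all tested genes, with a threshold of 0.05. Alternatives were RLE or total-count scaling, no low-count filter, DESeq2 1.42.0, limma 3.58.1 on log2(FPKM + 1) and log2(FPKM + 0.1), the replicate number as a block, removal of each library's lowess trend (span 0.3) over effective length, and each library left out in turn. The block together with the length correction was added after the data were seen. Effective length is the deposited estimated count, as a share of the library, divided by FPKM (12433 genes). Levels between genes are compared as FPKM. Coordinates come from GENCODE v29 (GRCh38) and promoters from RefSeq on GRCh38.p14. Plots were drawn with matplotlib 3.10.9.

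The members and lists were chosen with earlier results of these data known. Values are given by library for the 6 members of highest FPKM, the 8 of smallest p and those whose groups do not overlap. Of the other pathway genes the 4 of smallest p are named.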

Additional observations from a re-analysis of the deposited data

How the results depend on the processing

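The edgeR test, RLE scaling, scaling by total count alone, the unfiltered fit, DESeq2, both limma fits, the replicate block, the length correction, the block with the length correction and the 6 fits without 1 library each called 0 of the 39 members and 0 of the other pathway genes; DESeq2 gave no adjusted p for 8 members. The member median ran from -0.028 to 0.0018 over these. Counts over all genes did move from 0: 18 without a low-count filter, 25 with DESeq2, 1 with limma on log2(FPKM + 0.1), 59 with the replicate block, 39 with the block and the length trend removed, and 1 to 10 without single libraries. LCP1 changed sign to 0.0011 with total-count scaling and 0.0012 in both FPKM fits, and ran from -0.017 to 0.014 without single libraries. TMSB4X was 0.071 with the length trend removed and 0.070 with the block added, and ran from -0.060 to 0.044 without single libraries. The cause was not tested. With the replicate block 12 members had an unadjusted p under 0.05 where 10.8% of all genes did, and the smallest adjusted p was 0.106 (TMSB10). Whether the numbers pair libraries is uncertain: each library correlated best with its own number, at 0.0733, 0.096 and 0.0481 over all tested genes and 0.364, 0.427 and 0.245 over the 4368 abundant ones. They were treated as numbers only, a choice made after the calls of the blocked fit were seen, so its values stand beside the main ones. Standard errors of the members ran from 0.042 to 0.060, which include depth and the spread between libraries.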
